A study of Mus musculus with 2 samples.

Results

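The genes described here are 39 mouse genes that respond to type I interferon, read by symbol in the gene table of 1 pooled single-cell library of mVenus-sorted liver cells. Of these, 38 matched 1 of the 31052 gene rows and Mx2 was not analysed here. The genes were grouped by role into antiviral effectors, regulators, nucleic acid sensors, interferon-inducible GTPases and others. They were measured gene by gene and as their summed share of all gene UMIs (unique molecular identifiers, which count captured molecules), given as CPM (UMIs per 1000000 gene UMIs of the same cells). Because each UMI marks the 3′ end of 1 molecule, levels carry no term for gene length.

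Type I interferons are secreted by cells that sense foreign or misplaced nucleic acid. They bind the receptor IFNAR, whose signal leads to the complex ISGF3. This complex holds STAT2 and IRF9 and binds the interferon-stimulated response element (ISRE) in the promoters of its targets. Interferon-γ acts through another receptor, and the large and immunity-related GTPases answer to it strongly. In the liver, hepatocytes carry both receptors, and interferon genes also form part of the secretory programme of senescent cells.

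The 3 mice were female BL6 animals (C57BL/6 in the methods of the study), injected at 6 to 8 weeks of age and killed on day 6 after hydrodynamic tail vein injection, which delivers plasmid to a part of the hepatocytes. All 3 received a transposon with a CAGGS promoter driving NRAS and, behind an internal ribosome entry site, mVenus, together with a plasmid for the SB13 transposase. The transgene was NRAS(G12V) in 2 mice. In 1 mouse it was NRAS(G12V/D38A), an effector-loop mutant that shares the G12V change and that the study uses as a non-oncogenic control. No uninjected mouse was included. The deposited key gives hashtag 1 to the D38A mouse and hashtags 2 and 3 to the G12V mice, whereas in the methods of the study hashtags 1 and 2 mark G12V and hashtag 3 marks D38A. Mice are therefore named by hashtag. With 1 control mouse, no test between genotypes was made.

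After limits on genes, UMIs and mitochondrial RNA, 10056 of 13151 barcodes were kept. Of these, 8394 were hepatocytes, defined as barcodes in which Alb, Apoa1, Apoa2, Ttr and Fgb held at least 1% of gene UMIs. A separate list of 8 hepatocyte genes held 14640 CPM in these cells and between 948 and 2567 in the other cell types. Results by Nras dose used the 2236 hepatocytes with at least 10000 UMIs. Of these, 231 were called for hashtag 1, 1129 for hashtag 2, 25 for hashtag 3 and 851 for no mouse. A fixed rule on hashtag UMIs moved no such cell from 1 mouse to another, but gave 1522 hepatocytes of any depth to hashtag 1 in place of 456, and 481 to hashtag 2 in place of 1400.

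To show which control sequence these genes share, the promoters of members in the RefSeq table (GRCm38.p6) were searched on both strands for the core of the ISRE, spelled GAAA, any 2 bases, GAAA. Windows ran from 250 bases before to 50 after the start. Of the 30 members with a window, 18 held the core, against 1079 of all 27025 genes (3.99%). By role, it was found in 6 of 7 GTPases, 2 of 2 sensors, 8 of 13 effectors, 1 of 3 regulators and 1 of 5 others. The 10 sites shown, with the core in capitals (on the other strand it reads TTTC, any 2 bases, TTTC), belong to genes on which the results turn. The Stat2, Ifit1, Isg15, Irgm2 and Ddx58 sites come from genes that were lower at high Nras. Those of Rsad2, Ifit3 and Ifit3b come from genes whose UMIs lay in few cells, that of Bst2 from a gene spread over most cells, and that of Igtp from the gene that overlaps Irgm2.
Stat2, chr10:128270266-128270295, plus strand: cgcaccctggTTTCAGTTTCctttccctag
Ifit1, chr19:34640794-34640823, plus strand: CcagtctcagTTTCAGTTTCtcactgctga
Isg15, chr4:156200871-156200900, minus strand: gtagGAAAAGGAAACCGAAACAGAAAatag
Irgm2, chr11:58214903-58214932, plus strand: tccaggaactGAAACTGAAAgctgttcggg
Ddx58, chr4:40239804-40239833, minus strand: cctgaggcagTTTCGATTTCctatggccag
Rsad2, chr12:26456553-26456582, minus strand: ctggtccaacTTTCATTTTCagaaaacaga
Ifit3, chr19:34583397-34583426, plus strand: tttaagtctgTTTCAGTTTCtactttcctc
Ifit3b, chr19:34607793-34607822, plus strand: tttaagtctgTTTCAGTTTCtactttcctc
Bst2, chr8:71537577-71537606, minus strand: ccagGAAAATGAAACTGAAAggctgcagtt
Igtp, chr11:58199512-58199541, plus strand: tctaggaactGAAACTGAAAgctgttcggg
The core began 222 bases before the start of Stat2, 85 before Ifit1, 120 before Rsad2, 64 before Irgm2 and 34 before Igtp, and 2 bases after the start of Ddx58. In Isg15, 3 overlapping copies began 78, 72 and 66 bases before the start, and in Bst2 2 overlapping copies began 130 and 124 bases before it. The first capital of the Ifit1 line is the last base of a further copy that began 104 bases before the start. The Ifit3 and Ifit3b sites are the same over all 30 bases. These genes are near-identical neighbours (chromosome 19, 34583531 to 34588731 and 34607970 to 34613401), so the split of their reads is uncertain. The Igtp and Irgm2 genes overlap in the GENCODE vM21 annotation, since Igtp (chromosome 11, 58199556 to 58207591) lies within Irgm2 (58199618 to 58222782) but for its first bases. Their separate levels are uncertain too.

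In the 2236 deep hepatocytes most UMIs of the 38 genes came from 2 of them. Iigp1, an immunity-related GTPase that attacks the vacuoles of intracellular parasites, was at 370.7 CPM (95% Poisson interval 366.7 to 374.7, counting error only). Bst2, or tetherin, a membrane protein that holds budding virus on the cell, was at 301.1 (297.5 to 304.7). Together they held 62.4% of the UMIs of all members. Isg15, a ubiquitin-like modifier, followed at 50.2, Ifi35 at 38.02 and Irgm1, a GTPase of autophagy and vacuole defence, at 27.9. At the other end, Oas2 had 1 UMI and Oas3 had 20 among 90408834, and the antiviral GTPase Mx1 had 80.

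Iigp1 was at 386 CPM in all hepatocytes of the hashtag 1 mouse, 361 in the hashtag 2 mouse and 274 in the hashtag 3 mouse. Bst2 was at 323, 287 and 405 in the same order. The order of the mice thus differed between the 2 genes. The summed share of the members was 1242.3 CPM (interval 1221.1 to 1263.7) with hashtag 1, 1024.4 (1015.9 to 1033.0) with hashtag 2 and 1435.7 (1381.7 to 1491.3) with hashtag 3. Over all depths, the control mouse lay between the G12V mice under the deposited key and above both under the methods' pairing. The hashtag 3 cells were shallow, with a median of 2393.5 UMIs against 10166 and 40130.5. At 10000 UMIs or more the 3 shares were 1204.8, 1021.0 and 1183.0, and the last rests on 25 cells. In these deep cells the placement was the reverse, above both under the deposited key and between under the methods' pairing. The intervals of hashtags 1 and 3 overlapped there (1183.0 to 1226.8 and 1098.2 to 1272.6).

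**Figure D1:**
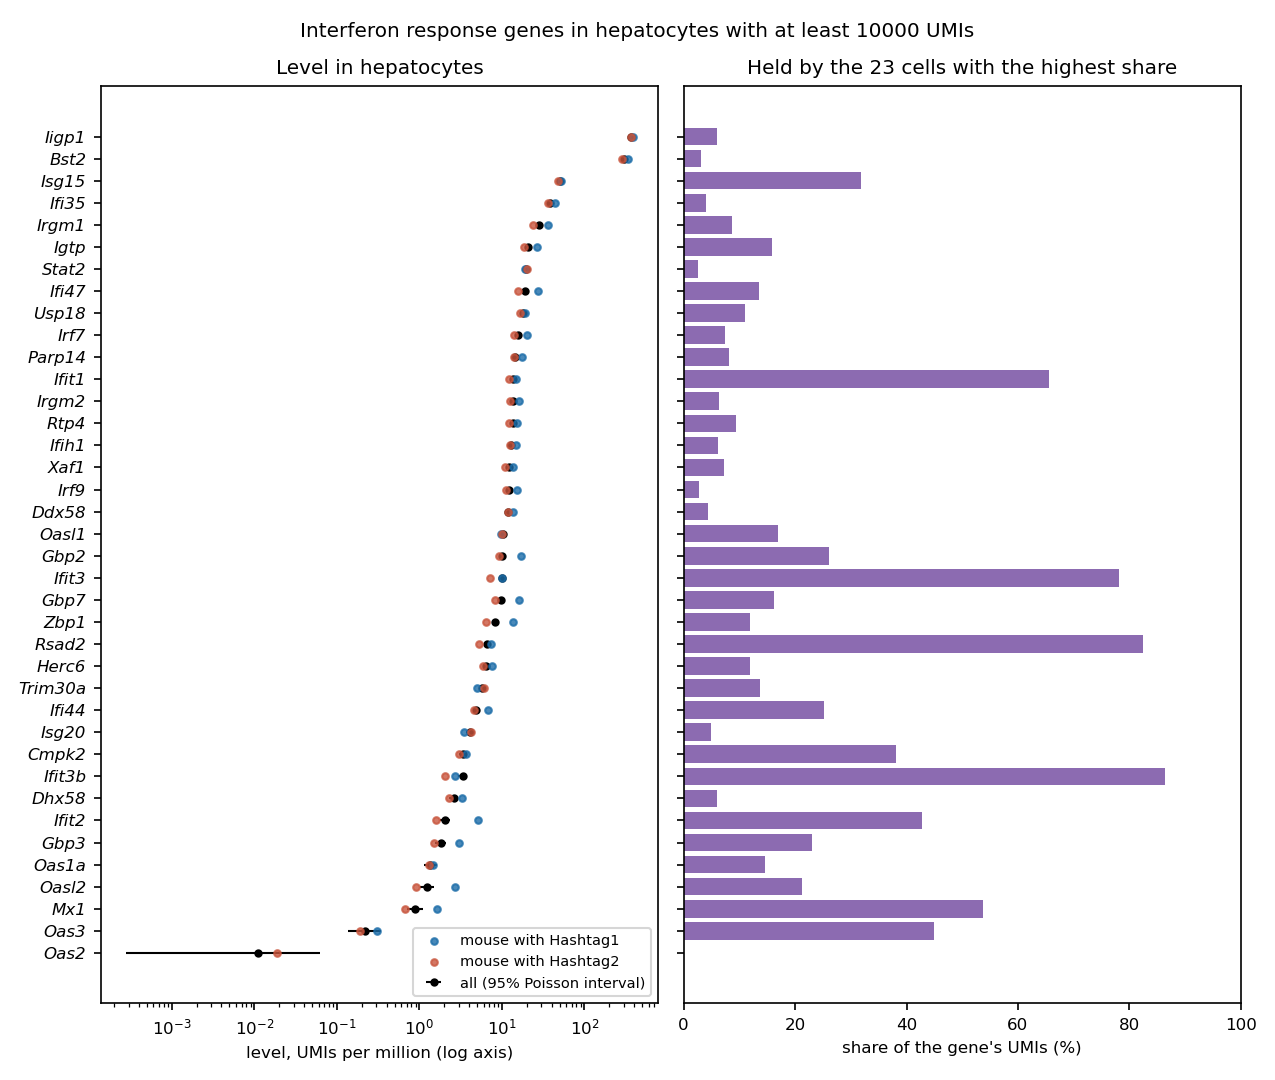
Left, level of each member in hepatocytes with at least 10000 UMIs (CPM, log axis), over all cells with its 95% Poisson interval (black) and in the mice with hashtag 1 (blue) and hashtag 2 (red). Right, the share of each gene's UMIs found in the 23 cells with the highest summed share. Iigp1 and Bst2 stand above the rest on the left, whereas on the right Ifit3b, Rsad2, Ifit3, Ifit1 and Mx1 have the longest bars. Stat2, Irf9 and Bst2 have short ones, and Oas2, with 1 UMI in all, has none.

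Members differed in how evenly the cells used them. The Fano factor (variance over mean, on counts thinned to 10000 UMIs per cell) had a median of 1.28 over the 38 members and of 1.07 over all genes tested by dose. Rsad2, which encodes the radical enzyme viperin, had a Fano factor of 13.5, Ifit1 one of 11.3, Ifit3 8.83, Ifit3b 7.62 and Isg15 7.09, while those of Irf9 and Ifih1 were 1.07 and 1.06. Over the members, 7 were above the 95th percentile of all genes tested. The Fano factor depends on level too, so it does not rank genes of unlike level.

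A small set of hepatocytes held most of the UMIs of 5 of the 15 effectors, Rsad2, Ifit1, Ifit3, Ifit3b and Mx1. The 23 deep hepatocytes with the highest summed share, about 1% of 2236, were chosen by these genes, so their levels there are a description. They held 1.18% of all UMIs and 9.78% of member UMIs. Their shares ran from 4642 to 20542 CPM (0.464% to 2.05% of a cell's RNA), against a median of 899 in the other cells. The highest cell left out was at 4616, so no gap separates the set.

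Within these cells, the IFIT proteins, which bind foreign 5′ ends of RNA, and viperin stood out. The 23 cells held 489 of 593 Rsad2 UMIs (82.5%), 806 of 1229 Ifit1 UMIs (65.6%), 698 of 893 Ifit3 UMIs (78.2%) and 260 of 301 Ifit3b UMIs (86.4%). Mx1 was the fifth member with more than 50% of its UMIs there (53.8% of 80). Isg15 had 31.8% of its UMIs in these cells. By contrast, the ISGF3 subunit genes Stat2 and Irf9 had 2.60% and 2.75%, Bst2 had 3.18% and the RNA sensor Ddx58 (RIG-I) had 4.37%. In the other hepatocytes Ifit1 was at 4.73 CPM and Rsad2 at 1.16, whereas Stat2 was at 19.3 and Bst2 at 295.0.

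The highest cells were not alike. In the cell of rank 1 there were 163 Isg15, 138 Ifit3, 130 Ifit1 and 73 Rsad2 UMIs. The cell of rank 2 had 237 Ifit1 and 122 Rsad2 UMIs. Of the 23 cells, 7 had 30 or more Rsad2 UMIs, and a count of 5 or more was met in 7 of them and in 12 of all deep hepatocytes. The cells of rank 4 and 7 had no Rsad2 UMI but 71 and 59 of Ifit3, and 116 and 150 of Isg15. The cell of rank 9 showed the reverse, with 41 Rsad2 and 51 Isg15 UMIs and none of Ifit3.

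A further 7 of the 23 cells had no Rsad2 UMI and at most 1 of Ifit1. In the cells of rank 11, 14, 18, 21 and 22 the most frequent member was the GTPase Iigp1. The cell of rank 11 had 146 Iigp1 UMIs and 6 of Isg15, and that of rank 18 had 111 Gbp2, 128 Iigp1 and 43 Igtp UMIs. The cells of rank 17 and 19 were shallow, with 13074 and 10902 UMIs, and had 13 and 2 UMIs of Iigp1. Their hepatocyte gate genes held 1.56% and 1.23% of UMIs, near the limit of 1%. Mitochondrial UMIs made up 1.09% and 1.72% in them, against 5.22% in the next lowest of the highest cells. Whether these cells are hepatocytes or other cells with free hepatocyte RNA was not tested. The cell of rank 18 also had 701 UMIs of Cxcl9 and 135 of Ccl5, chemokine genes outside the list that were looked up after its values were seen. Cxcl9 was not particular to it, with 306 UMIs in the cell of rank 6, 277 in rank 14 and 261 in rank 16. The cells of rank 17 and 19 had 138 and 56, and those of rank 1 and 2 had none. Over all 2236 cells, thinned counts of Ifit1 correlated with Rsad2 (Pearson r = 0.82), Ifit3 (0.77) and Isg15 (0.69) and hardly with Gbp2 (0.04) or Stat2 (-0.01). Without the 23 cells the first 3 values were 0.12, 0.28 and 0.25. These are values across cells of 1 library, which share mice and free RNA, and carry no test.

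**Figure D2:**
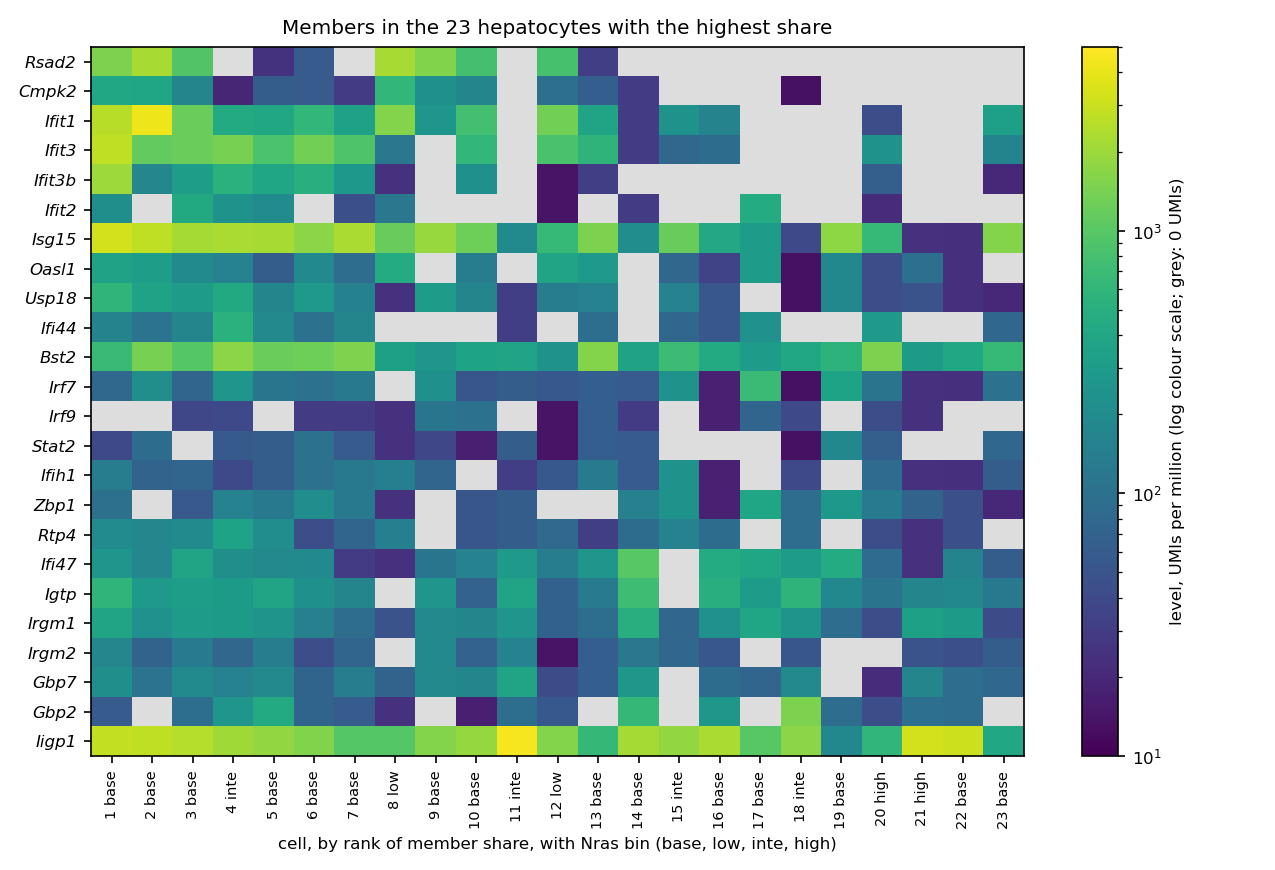
Each column is 1 of the 23 hepatocytes with the highest summed share of member UMIs, by rank and with its Nras bin, and each row is a member. Colour gives CPM on a log scale and grey marks 0 UMIs. Rsad2 and the Ifit genes are bright mainly on the left, Igtp, Irgm1 and Iigp1 run across, and several cells on the right lack Rsad2 and Ifit1.

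Markers of other cell types differed by list in these cells. None of the 9 macrophage, 7 B cell or 6 neutrophil markers had a UMI. The 9 conventional dendritic markers summed to 44.2 CPM against 15.4 in the other deep hepatocytes, and the 10 T and NK markers to 14.1 against 2.84. Monocyte markers were at 5.64 against 3.0 and plasmacytoid dendritic markers at 0.940 against 0.414. The part of these RNAs in the result was not tested. Summed over the 23 cells, the hepatocyte gate genes were at 81327 against 81608, but by cell they ran from 1.23% to 16.9% of UMIs. The median depth was 48475 UMIs against 39280. Of the 23 cells, 12 were called for hashtag 2, 3 for hashtag 1 and 8 for no mouse. By Nras, 15 were at baseline, 2 low, 4 intermediate and 2 high, which is 0.9004% (exact interval 0.505 to 1.48), 0.769% (0.0933 to 2.75), 2.27% (0.623 to 5.72) and 1.49% (0.181 to 5.29) of the cells of each bin. These intervals overlap.

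The next comparison asked how the members follow the level of Nras. The construct is read in the mouse Nras row, so hepatocytes were binned by Nras CPM into baseline (under 300), low (300 to 1000), intermediate (1000 to 3000) and high (3000 or more). Baseline held 74.5% of the deep hepatocytes, with a median of 51.7 Nras CPM. Of the deep hepatocytes outside the 23 highest, 35.3% had an mVenus UMI. Whether baseline cells carried the construct was not tested. Nras and mVenus were kept out of totals and tests. UMIs were summed per mouse and bin and fitted with edgeR, with the mouse as a block. Only the mice with hashtags 1 and 2 had at least 10 cells in every bin. The hashtag 3 mouse entered at baseline alone, so the p-values of this comparison rest on 2 mice. These mice are 1 of each genotype under the deposited key and both G12V under the methods'. Under the deposited key the fit thus joins bins of NRAS(G12V) with bins of the non-oncogenic allele, and is not one of oncogene dose alone. The 851 hepatocytes without a hashtag call were not fitted. They come from the same 3 mice and their values are given beside the fit.

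With UMIs pooled over cells, the summed share was lower at high than at baseline Nras in each set of cells, without a common order between. From baseline to high it was 1299.7, 1160.6, 1025.7 and 1068.2 CPM with hashtag 1, and 1026.2, 982.0, 1072.1 and 970.4 with hashtag 2. In cells without a call it was 1135.3, 1282.9, 1072.6 and 964.1. The baseline and high intervals, which cover counting error only, did not overlap with hashtag 1 (1269.3 to 1330.6 and 1009.7 to 1129.2) or with hashtag 2 (1015.7 to 1036.8 and 941.1 to 1000.4). As a mean of cells, the share was lower at high with hashtag 1 (1292.4 to 1102.5) and without a call (1080.2 to 956.4). With hashtag 2 this mean was not lower (1006.9 to 1038.3). The median cell was lower at high in each set, at 866.4 against 1031.1, 747.1 against 887.4 and, without a call, 733.4 against 922.0. Median depth rose over the bins from 36003 UMIs at baseline to 48025.5, 59392 and 52761.5. The median share of the hepatocyte gate genes fell from 7.51% to 5.59%, 3.77% and 3.49%.

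By gene, of the 34 members tested, 6 were lower at high than at baseline Nras (17.6%, against 12.5% of all 10628 genes lower) and none was higher (against 12.7%). At the unadjusted threshold of 0.05, 10 members passed. The median log2 fold change was -0.45 over the members and -0.02 over all genes, and 29 of the 34 values were below 0. The 6 genes were 2 of 4 regulators (Stat2 and Usp18), 2 of 11 effectors (Isg15 and Ifit1), 1 of 4 sensors (Ddx58) and 1 of 8 GTPases (Irgm2). None of the 7 other members passed.

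Stat2, a subunit of ISGF3, gave the clearest series. From baseline to high it was at 23.2, 20.1, 11.7 and 8.57 CPM with hashtag 1 and at 24.3, 15.6, 11.2 and 7.50 with hashtag 2. In cells without a call the values were 20.3, 14.8, 10.6 and 11.9. In both mice each bin was below the one before it, and in the uncalled cells this held for the first 3 bins. The log2 fold change at high against baseline was -1.60 (SE 0.23, edgeR adjusted p = 5.84e-05). It was called under each of the 12 alternatives, with the lowest size (-1.05) for quartile bins.

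Usp18, the protease that removes ISG15 and restrains IFNAR, is the other regulator. It was at 21.3, 20.1, 13.6 and 12.9 CPM with hashtag 1, and at 18.5, 13.4, 14.6 and 10.8 with hashtag 2. The uncalled cells ran from 21.0 to 19.2, 14.0 and 12.5. High was the lowest bin in all 3 sets (log2 fold change -0.75, SE 0.22, edgeR adjusted p = 0.018). Irf9 and Irf7 did not pass, with log2 fold changes of -0.45 (SE 0.24) and -0.31 (SE 0.25).

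Among the effectors, Ifit1 had the largest difference. It was at 24.1, 6.10, 1.95 and 2.57 CPM with hashtag 1, and at 14.0, 14.1, 5.27 and 1.88 with hashtag 2. Uncalled cells were at 15.7, 36.3, 2.55 and 1.25. The high bin rests on 3, 8 and 2 UMIs. The log2 fold change was -3.11 (SE 0.63, edgeR adjusted p = 0.011). Without the 23 highest cells it was -1.92, with an edgeR adjusted p of 0.0038. With bins cut at quartiles of Nras its direction turned and it was not called (log2 fold change 0.12, edgeR adjusted p = 0.95).

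Isg15 was at 68.0, 43.9, 20.8 and 31.7 CPM with hashtag 1 and at 55.2, 33.5, 39.3 and 23.5 with hashtag 2. In uncalled cells it was at 59.1, 52.8, 26.4 and 31.2. Baseline was the highest bin in each set (high against baseline, log2 fold change -1.20, SE 0.29, edgeR adjusted p = 0.022). The call was lost under 5 of 12 alternatives, among them cells of at least 3000 UMIs (edgeR adjusted p = 0.14) and hepatocytes with no markers of another type (0.065). In the hashtag 1 mouse, conventional dendritic markers were at 104.3 CPM at baseline and 9.43 at high, and T and NK markers at 12.5 and 3.43. Endothelial markers were at 139.8 and 39.4. With hashtag 2 they were at 10.5 and 18.1, at 1.78 and 3.52, and at 19.5 and 25.8. Their part in the Isg15 result was not tested beyond that alternative. The sum of the 7 stellate markers was higher at high than at baseline Nras in both mice, at 663.6 against 95.1 CPM and at 609.3 against 141.1. At high 2 of them with hashtag 1 and 4 with hashtag 2 had no UMI, against 3 and 0 at baseline. A marker at 0 UMIs depends on depth too. The high sums held 1166452 and 4264197 gene UMIs, against 5351314 and 35409159 at baseline. These values do not show whether the list rose as a whole. The part of stellate RNA in the result was not tested.

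Ddx58 and Irgm2 made up the rest. Ddx58 was at 16.1, 12.2, 11.7 and 6.86 CPM with hashtag 1 and at 12.5, 11.7, 11.5 and 7.74 with hashtag 2, and ran from 12.1 to 4.995 in uncalled cells (log2 fold change -0.85, SE 0.24, edgeR adjusted p = 0.017). Irgm2, a regulator of the other GTPases, was at 20.2, 12.8, 11.7 and 6.86 with hashtag 1 and at 13.9, 11.1, 10.2 and 7.27 with hashtag 2 (log2 fold change -1.13, SE 0.24, edgeR adjusted p = 0.0024). Its uncalled cells did not follow, with 15.1 at baseline and 14.4 at high. The DESeq2 fit did not call Ddx58, Irgm2 or Usp18 and kept Stat2, Ifit1 and Isg15.

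Of the 5 most abundant members, those other than Isg15 did not pass at any dose. At high against baseline the log2 fold change was 0.06 (SE 0.11) for Iigp1, 0.11 (SE 0.11) for Bst2, 0.09 (SE 0.15) for Ifi35 and -0.11 (SE 0.42) for Irgm1. Iigp1 ran between 353 and 416 CPM over all 8 mouse and bin sums. The largest positive value was that of Gbp3 (1.70, SE 0.66, edgeR adjusted p = 0.076), followed by the related Gbp2 (1.58, SE 0.75, edgeR adjusted p = 0.25). Gbp2 was at 4.60 CPM at baseline and 26.7 at high with hashtag 2, but at 15.5 and 12 with hashtag 1. In the intermediate bin it was at 29.2 and 27.5 in the mice with hashtags 1 and 2 and at 4.25 in uncalled cells.

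At intermediate Nras, 2 members were lower (5.88%, against 9.87% of all genes) and none higher (against 10.2%), with 5 at an unadjusted p under 0.05. They were Stat2 (log2 fold change -1.05, SE 0.20, edgeR adjusted p = 0.0010) and Ifit1 (-1.98, SE 0.49, edgeR adjusted p = 0.031). With quartile bins neither was called, at -0.35 (edgeR adjusted p = 0.38) for Stat2 and 0.38, the other direction, for Ifit1 (0.94). At low Nras none of the 34 passed in edgeR, against 6.03% of all genes in either direction. DESeq2 called none, and 6 had an unadjusted p under 0.05. The median log2 fold change at low Nras was -0.30. Testing the low and intermediate bins against the outer 2 likewise called none, against 0.489% of all genes. DESeq2 called none here too, and 1 had an unadjusted p under 0.05.

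**Figure D3:**
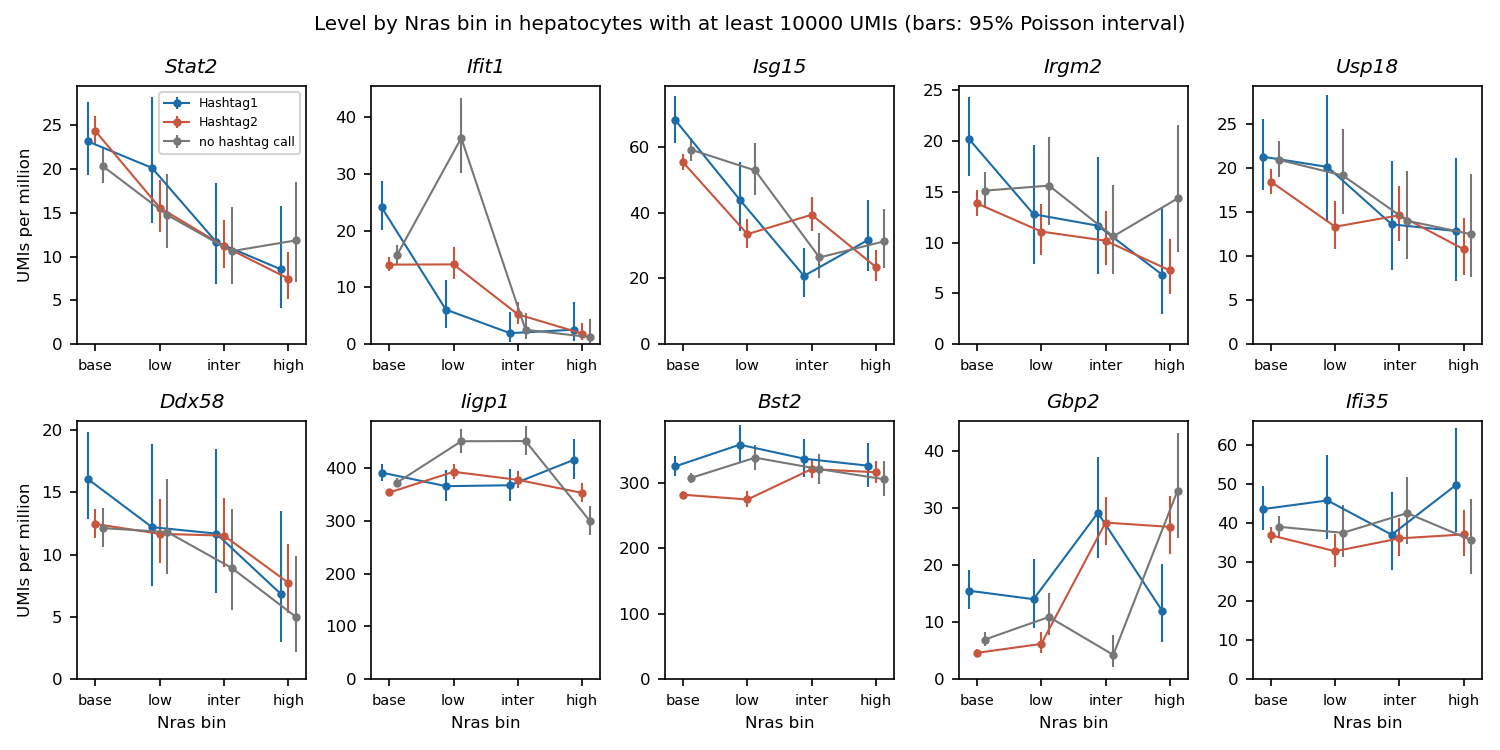
Level (CPM, linear axes from 0) of 10 members over the 4 Nras bins in hepatocytes with at least 10000 UMIs, in the mice with hashtag 1 (blue) and hashtag 2 (red) and in cells without a hashtag call (grey). Bars are 95% Poisson intervals. Stat2 falls in both mice at each step, from 23.2 and 24.3 to 8.57 and 7.50, whereas Iigp1 and Bst2 stay level and Gbp2 differs between the mice.

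Other genes of the pathway were read from lists that do not overlap with the members. Among receptors and signal transducers, 2 of 11 tested were higher at high Nras (18.2%, against 12.7% of all genes) and none lower. Both encode chains of the interferon-γ receptor. Ifngr1 was at 73.1 CPM at baseline and 163.7 at high with hashtag 1, and at 83.1 and 191.6 with hashtag 2 (log2 fold change 1.20, SE 0.13, edgeR adjusted p = 3.42e-06). It also passed at intermediate and at low Nras (log2 fold changes 0.92 and 0.65). Ifngr2 had a log2 fold change of 0.99 at high (SE 0.17, edgeR adjusted p = 0.00049). None of the 10 nucleic acid sensors and adaptors tested passed at any dose, against 12.7% of all genes higher and 12.5% lower at high Nras.

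Of the other factors, Irf1, which drives interferon-γ targets, was lower at high Nras (log2 fold change -0.62, SE 0.20, edgeR adjusted p = 0.035), 1 of 3 tested. Of 28 further interferon-induced genes tested, 5 were lower at high Nras and none higher. They were Lgals9, the lectin galectin-9 (-0.95, SE 0.12, edgeR adjusted p = 1.63e-05), Ifitm3, a block to virus entry (-0.66, SE 0.10, 0.00012), and Samd9l (-1.15, SE 0.27, 0.0044), besides Psmb8 and Dtx3l. Ifitm3, an abundant gene, fell from 767 to 490 CPM with hashtag 1 and from 606 to 371 with hashtag 2. The share of this list that was lower (17.9%) lies beside 12.5% for all genes.

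Interferon transcripts themselves were rare. Of 17 interferon genes with a row, 10 had no UMI in the kept cells, among them all 9 listed numbered Ifna genes. Ifnb1 had 27 UMIs in 8 cells, of which 19 were in 3 conventional dendritic-like cells, 6 in 4 macrophage-like cells and none in hepatocytes. Ifng had 141 UMIs, of which 105 were in 20 T and NK-like cells and 29 in 11 hepatocyte barcodes. The interferon-λ genes Ifnl2 and Ifnl3 had 2 and 7 UMIs in 1 conventional dendritic-like cell. The 23 highest hepatocytes had no Ifnb1 or Ifng UMI and 1 of Ifnab.

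Cells below the hepatocyte gate were typed by markers (at least 3 detected), which used no member. As the sort was for mVenus and the livers are mixed, these cells show which other types were in the pool, and free RNA cannot be told apart from their own at low levels. The hepatocyte gate genes were at 2825 to 6329 CPM in them against 73296 in hepatocytes. The summed share of the members was 1095.7 CPM in hepatocytes of all depths and 1175.7 in 619 conventional dendritic-like cells. It was 576.8 in 45 B-like, 1961.8 in 81 T and NK-like, 2992.8 in 543 endothelial-like and 3841.8 in 38 macrophage-like cells. The highest value, 5543.0 (5036.0 to 6087.2), was that of 16 plasmacytoid dendritic-like cells, in which Bst2 alone stood at 4606.5. By hashtag 1, 2 and 3, T and NK-like cells were at 3199.3, 1060.8 and 1111.2 CPM, against 1242.3, 1024.4 and 1435.7 in hepatocytes. Conventional dendritic-like cells were at 1453.1, 993.8 and 957.6, the last from 9 cells, and endothelial-like cells at 1864.6, 3388.0 and 3126.1. Hashtag 3 supplied 460 of the endothelial-like cells, and 372 of the conventional dendritic-like cells came from hashtag 2.

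Over these 7 types and 20 stellate-like cells, the highest level was in macrophage-like cells for 17 of the 38 members, in endothelial-like cells for 6, in plasmacytoid dendritic-like cells for 5 and in T and NK-like and stellate-like cells for 4 each. In stellate-like cells Gbp2 was at 269.8 CPM (180.7 to 387.5), against 57.0 in macrophage-like cells. Many of these levels rest on few UMIs, such as 5 of Usp18 in plasmacytoid dendritic-like and 6 of Irgm2 in stellate-like cells. Conventional dendritic-like cells had the highest Mx1, and hepatocytes the highest Iigp1. By mouse, Iigp1 was at 386, 361 and 274 CPM in hepatocytes and at 186, 107 and 223 in endothelial-like cells. It was at 74.4 and 120.6 in macrophage-like cells, at 69.0 and 33.7 in conventional dendritic-like cells, and at 50.1, 47.2 and 52.9 in T and NK-like cells. No sum of at least 10 cells of another type reached those of the hepatocytes.

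**Figure D4:**
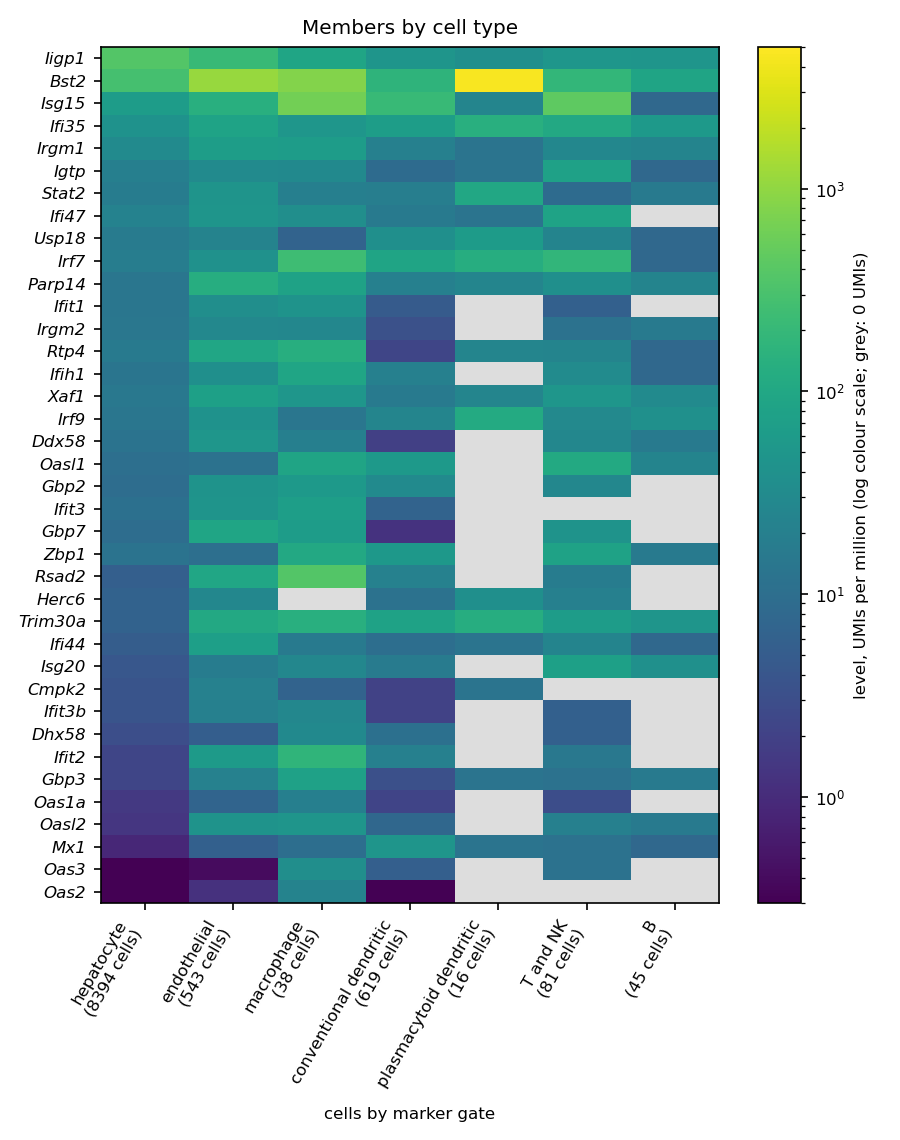
Level of each member (rows, ordered by level in deep hepatocytes) in the 7 marker-gated cell types (columns, with cell numbers), as CPM on a log colour scale, with grey for 0 UMIs. Iigp1 is brightest in hepatocytes, Bst2 in plasmacytoid dendritic-like cells, and Isg15, Irf7, Rsad2 and Ifit2 in macrophage-like cells.

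Sums of at least 10 cells per mouse and type were fitted with edgeR, and 22 members passed the filter on low counts. Macrophage-like cells of the mice with hashtags 1 and 2 had 8 members higher than hepatocytes (36.4%, against 14.9% of all 4445 genes) and 1 lower (4.55%, against 10.7%). Rsad2 was at 149 and 395 CPM in them, against 7.11, 5.16 and 18.9 in hepatocytes (log2 fold change 4.92, SE 0.93, edgeR adjusted p = 0.0039). Ifit2 was at 158 and 208, against 5.59, 1.68 and 18.3 (5.09, SE 0.86, edgeR adjusted p = 0.0017). The 7 macrophage-like cells of the hashtag 3 mouse were too few to enter. In both genes the macrophage sums lay above every hepatocyte sum. Gbp3, Trim30a, Irf7 (the factor that amplifies interferon genes), Zbp1 (a sensor of Z-form nucleic acid), Rtp4 and Xaf1 were also higher, with log2 fold changes from 1.56 to 4.28.

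Endothelial-like cells had 7 members higher (31.8%, against 25.8% of all genes) and Iigp1 lower (4.55%, against 14.8%). Trim30a, which restrains TLR signalling, was at 80.3, 107.2 and 112.0 CPM against 6.26, 6.33 and 35.0 in hepatocytes (log2 fold change 2.73, SE 0.50, edgeR adjusted p = 0.0020). Parp14 was at 97.2, 125.0 and 134.9 against 17.6, 13.9 and 34.5 (2.23, SE 0.44, edgeR adjusted p = 0.0029). Ifit2, Rsad2, Gbp3, Rtp4 and Xaf1 were the others, with log2 fold changes from 1.71 to 2.87. Without the hashtag 1 mouse, or without the hashtag 2 mouse, none of these 8 calls held, with 10 and 12 members left in the test.

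T and NK-like cells had 9 members higher (40.9%, against 22.7% of all genes) and 1, Iigp1, lower (4.55%, against 22.3%). The calls were led by Isg20, an RNA exonuclease (log2 fold change 3.76, SE 0.96, edgeR adjusted p = 0.0071), Oasl1 (2.79, SE 0.89, 0.023) and Zbp1 (2.64, SE 0.45, 0.00066), followed by Irf7, Trim30a, Isg15, Igtp, Ifi47 and Xaf1. The mouse with hashtag 1 stood apart, with Isg15 at 895 CPM against 130 and 141 and Irf7 at 394 against 58.9 and 8.82. Without it 1 of the 10 calls was kept, that of Iigp1, with 10 members left in the test. Without hashtag 2 there were 3 calls and without hashtag 3 there were 6.

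Conventional dendritic-like cells had 4 members higher (18.2%, against 22% of all genes), namely Trim30a, Zbp1, Ifit2 and Oasl1, and 3 lower (13.6%, against 22.2%). The latter were Iigp1 (log2 fold change -2.59, SE 0.42, edgeR adjusted p = 0.00044), Gbp7 (-3.16, SE 1.00, 0.024) and the chaperone-like Rtp4 (-2.51, SE 0.55, 0.0027). B-like cells had no member higher, against 13.1% of all genes higher, with 4 members at an unadjusted p under 0.05 in either direction. DESeq2 called 1 member higher and 2 lower in them, with the share of all genes not counted. They had 3 lower (13.6%, against 14.6%), Iigp1, Bst2 and Ifi47. Ifi47 had no UMI in the 3 B-like sums, so its fold is not given, and Bst2 was at 189, 0 and 64.7 CPM. With any 1 mouse left out, at most 1 of these 3 calls was made. Iigp1 was thus called lower than in hepatocytes in each of the 5 types tested.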

How the data were processed

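Cells of 3 mice were pooled in 1 gene expression library and 1 hashtag library. Per the file headers and the labels, the authors deposited UMI counts per gene and hashtag, made with Cell Ranger (2.1.1 in the submitters' notes, 3.0.2 in the header) on mm10 and with CITE-seq-Count without mismatches. The 2 10x lanes cannot be told apart, since barcodes carry 1 suffix. The counts were used as deposited. Barcodes with at least 500 genes, 1000 UMIs and under 20% mitochondrial UMIs were kept, and hashtags were called with HTODemux (Seurat 5.3.0, quantile 0.99). Doublets were removed by hashtag alone (163 cells), so doublets within 1 mouse or without a call remain. The median depth was 3908 UMIs per barcode.

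Counts summed per mouse and bin, or per mouse and type (at least 10 cells), were tested with edgeR 4.0.16 (quasi-likelihood, TMM, Benjamini-Hochberg over all genes tested, threshold 0.05). DESeq2 1.42.0 was an alternative. The code was tested on simulated data. Intervals are exact and cover counting error only. With the mouse as a block, p-values measure how the differences between bins or types vary among 2 or 3 mice, not the spread between mice. This variation is pooled over all bins or types of a fit and shared in part over genes. By rule, named members passed the threshold or were among the 5 highest in hepatocytes, and other lists gave up to 3 names in each direction. Members named for their spread over cells, their low level or a near miss (such as Ifit3, Ifit3b, Mx1, Oas2, Irf9, Ifih1 and Gbp2), and Psmb8 and Dtx3l, were added after their values were seen. Members, lists and bins were chosen with earlier results of these data known.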

Additional observations from a re-analysis of the deposited data

How the results depend on the processing

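The main limits are 2 mice per dose test, the hashtag calls and the few UMIs of low members. Of 96 values of the members called by dose, recomputed under 12 alternatives, 80 kept direction and call, 14 lost the call and 2 reversed. Both were Ifit1 under quartile bins (log2 fold changes of 0.12 at high and 0.38 at intermediate Nras). Of 304 such values by cell type, 260 kept both, 44 lost the call and none reversed. For the alternatives, here and above, the share of all genes called was not counted. Their counts of members therefore do not show whether members moved more than other genes. At low Nras, where no member was called, there were 5 calls without a filter on low counts, 3 with thinned cells, 2 under 10% mitochondrial UMIs, and 1 each with cells of at least 3000 UMIs, the fixed hashtag rule or no markers of another type. At intermediate Nras (2) there were 0 with quartile bins and 5 without the highest 1% of cells, which was chosen after seeing the data. At high Nras (6) there were 3 with DESeq2, 12 without the filter and 3 with quartile bins. The middle bins against the outer ones (0) gave 1 under 10% mitochondrial UMIs. By type, no filter gave 19 calls for conventional dendritic-like (7), 15 for endothelial-like (8) and 17 for macrophage-like cells (9). Cells of at least 3000 UMIs gave 15 for conventional dendritic-like and 6 for T and NK-like cells (10), and no markers of another type gave 14 for macrophage-like cells. Leaving out 1 mouse gave 0 to 1 calls for B-like, 1 to 6 for T and NK-like and, without the mice with hashtags 1 or 2, 0 for endothelial-like cells. Each such fit also tested fewer members. The cause of the other moves was not tested. The summed share at intermediate Nras in called cells (1065.4 CPM) became 1114.1 as a mean of cells, 937.63 without the highest cells and 1127.9 with the fixed rule. By mouse, hashtag 1 (1242.3) became 1437.5, 1147 and 1190 under these 3, and 1204.8 in deep cells. Hashtag 2 (1024.4) became 1058.3, 941.25 and 1061.9. Hashtag 3 (1435.7) became 1543.1 as a mean of cells, 1582.4 with the fixed rule and 1183 in deep cells. Over all depths, the control mouse was at 1242.3 under the deposited key and at 1435.7 under the methods' pairing. Without the mouse as a block, and with the other settings, the remaining counts stayed within 1.5 times. Not run, for lack of residual degrees of freedom or of cells, were the dose fits without hashtag 1 or 2, B-like and macrophage-like cells at 3000 UMIs, and conventional dendritic-like and macrophage-like cells without hashtag 1 or 2.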

Other observations

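Hepatocytes of lower depth showed another order of members than the deep ones. In the 3571 hepatocytes with 1000 to 3000 UMIs, the summed share was 1192.3 CPM, against 1173.5 in the 2587 with 3000 to 10000 and 1077.1 in the 2236 deep cells. Isg15 was at 131.2, 124.3 and 50.2 CPM in these 3 classes, so it was lower in deep cells. Stat2 ran the other way, with 9.02, 7.42 and 19.6, and Bst2 with 196.5, 201.0 and 301.1. Irf9, which joins STAT2 in ISGF3, was at 22.1, 18.7 and 12.1, whereas Iigp1 was at 337.6, 365.8 and 370.7. The median share of hepatocyte gate genes was 2.36%, 2.09% and 6.52%, and that of the separate list of hepatocyte genes was 1.35%, 1.118% and 1.275%. The mice are unequally spread over the classes, and the part of mouse, free RNA and depth in these values was not tested.

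Among sets too small to test, 20 stellate-like cells had a summed share of 1907.3 CPM (1655.2 to 2187.1). The 286 cells of no assigned type were at 896.9, of which the 13 with hashtag 3 stood at 3336.0, with Isg15 at 1243.1.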
